A study of Mus musculus with 4 samples.

Results

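The *Ly6* genes that surround *Ly6a*, the gene of the stem cell antigen Sca-1, were examined in RNA sequencing of LSK cells with and without PICH. The 7 genes *Ly6a*, *Ly6c1*, *Ly6c2*, *Ly6d*, *Ly6e*, *Ly6g* and *Ly6i* were taken by name from a deposited table of 39186 genes, and each matched 1 row. LSK cells, sorted from fetal livers as Lin-Sca-1+c-Kit+, hold the hematopoietic stem cells and early progenitors. There were 2 *Pich*-KO and 2 *Pich*-WT samples, all C57BL/6 and all from mid-gestation embryos. The labels call the groups Pich KO and WT and name no other allele or agent in either. PICH is an X-linked DNA translocase of mitosis, and the knockout line carries a small deletion at the start of the second exon. The labels do not say whether a sample was 1 embryo or a pool, so p-values measure the spread between these samples, which may be technical.

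*Ly6* genes encode small proteins with a three-finger fold, most of which are held on the cell surface by a lipid anchor. Immunologists use them as labels of blood cell types, and *Ly6a* and *Ly6e* are long known as genes that interferons raise. The sort itself read products of this family. Cells had to carry Sca-1, and cells bound by antibodies to CD4, CD8, Gr-1, B220 or Ter119 were removed. The Gr-1 antibody binds Ly6G and, less strongly, Ly6C. The samples therefore describe mRNA within a gate drawn partly on the proteins of *Ly6a*, *Ly6g*, *Ly6c1* and *Ly6c2*, and the gate's part in the differences was not tested.

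The members differ in how well short reads can tell them apart, so the coding sequences of the closest pairs are shown first. *Ly6c1* and *Ly6c2* had 387 of 396 coding bases in common, a percent identity of 97.7. The first 300 coding bases of each are printed from GENCODE M21, read on the minus strand in GRCm38 within chr15:75045402-75048511 for *Ly6c1* and chr15:75108543-75111667 for *Ly6c2*. Capitals mark the 7 differences in this stretch.
Ly6c1: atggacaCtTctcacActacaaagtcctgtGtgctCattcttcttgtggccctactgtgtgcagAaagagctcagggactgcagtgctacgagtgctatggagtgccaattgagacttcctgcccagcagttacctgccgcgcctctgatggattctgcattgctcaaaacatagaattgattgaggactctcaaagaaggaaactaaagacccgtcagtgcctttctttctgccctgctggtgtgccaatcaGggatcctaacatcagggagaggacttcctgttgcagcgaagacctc
Ly6c2: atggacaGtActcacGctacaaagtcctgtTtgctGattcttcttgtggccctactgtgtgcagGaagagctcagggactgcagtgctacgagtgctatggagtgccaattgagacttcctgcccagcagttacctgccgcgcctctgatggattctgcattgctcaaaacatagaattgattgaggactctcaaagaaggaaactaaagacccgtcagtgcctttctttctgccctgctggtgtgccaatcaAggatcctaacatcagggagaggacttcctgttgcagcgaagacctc
Most differences lay near the start, and the longest run without one was 188 bases, so a read that falls inside this run fits both genes equally well. *Ly6a* was most like *Ly6i*, with 350 of 405 coding bases in common (percent identity 86.4). Coding bases 120 to 300 of this pair are printed, from the minus strand within chr15:74995262-74997604 and chr15:74979914-74983059. Here capitals mark 41 of the 55 differences.
Ly6a: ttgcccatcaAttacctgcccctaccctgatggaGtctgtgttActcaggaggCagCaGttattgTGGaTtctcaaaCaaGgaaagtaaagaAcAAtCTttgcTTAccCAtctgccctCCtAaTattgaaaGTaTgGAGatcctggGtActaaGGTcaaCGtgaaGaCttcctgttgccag
Ly6i: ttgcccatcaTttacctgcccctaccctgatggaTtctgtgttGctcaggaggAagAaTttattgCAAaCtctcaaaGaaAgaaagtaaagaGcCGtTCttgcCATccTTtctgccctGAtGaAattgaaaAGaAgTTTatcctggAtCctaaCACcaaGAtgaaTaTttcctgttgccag
*Ly6e* and *Ly6d* were the most distant members, at 47.1 to 52.7 percent identity with every other member of the group. In the protein-coding transcripts of each gene in GENCODE M21, which leave out the retained-intron transcript of *Ly6c2*, 32.8% of words of 50 bases in *Ly6c1*, 31.2% in *Ly6c2* and 19% in *Ly6a* also occurred in another gene. The share was 4.76% for *Ly6i*, 0.448% for *Ly6g* and 0% for *Ly6e* and *Ly6d*. The read length and the handling of reads with several matches are not given in the sources used here, so single values of *Ly6c1* and *Ly6c2* are uncertain where they rest on few reads.

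Reads on genes numbered 14703215 to 20933919 a sample. *Ercc6l*, the gene of PICH, stood at 1142 and 1232 normalized counts against 772 and 661 in *Pich*-WT, and as its transcripts are still counted it does not check the labels. *Pich*-WT sample 2 had 0 reads on *Ddx3y*, *Uty*, *Kdm5d* and *Eif2s3y* and 699 on *Xist*, while the others had 253 to 1174 reads on each of these Y-linked genes and 4 to 13 on *Xist*. The fold changes of the members without this sample are given further on, while marker lists, levels per kilobase and nearest genes include it throughout.

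The members spanned a wide range of levels. *Ly6e* held rank 51 among the 32428 genes tested, by mean normalized count, and took 0.103% to 0.149% of all reads on genes. Per kilobase of the deposited gene length, the mean levels in *Pich*-WT were 4552 normalized counts for *Ly6e*, 814 for *Ly6a*, 82.6 for *Ly6c2*, 59.3 for *Ly6d*, 12.6 for *Ly6c1*, 9.92 for *Ly6i* and 2.01 for *Ly6g*. In *Pich*-KO the order was the same for *Ly6e* (6326), *Ly6a* (2724), *Ly6c2* (722) and *Ly6d* (76.4), followed by *Ly6i* (13.9), *Ly6c1* (8.20) and *Ly6g* (1.18). By this length *Ly6c1* and *Ly6i* overlapped in *Pich*-KO, and so did *Ly6c2* and *Ly6d* in *Pich*-WT. In *Pich*-WT, per-kilobase levels were 76.2 and 89.1 for *Ly6c2* and 85.1 and 33.6 for *Ly6d*. The length used matters for *Ly6c2*, whose deposited length of 2740 bases counts a transcript with a retained intron, while its longest coding transcript has 822 bases. It also matters for *Ly6c1*, with a deposited length of 1677 bases and a longest coding transcript of 844. Per kilobase of the longest coding transcript, *Ly6c2* reached 3517 normalized counts in *Pich*-KO sample 2, above *Ly6a* at 3119, but 1299 against 3755 in *Pich*-KO sample 1. On that scale *Ly6c2* and *Ly6d* did not overlap in *Pich*-WT, at 254 and 297 against 85.1 and 33.6. The *Pich*-KO means of *Ly6c1* (16.3) and *Ly6i* (13.9) then stood in the reverse order.

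**Figure D1:**
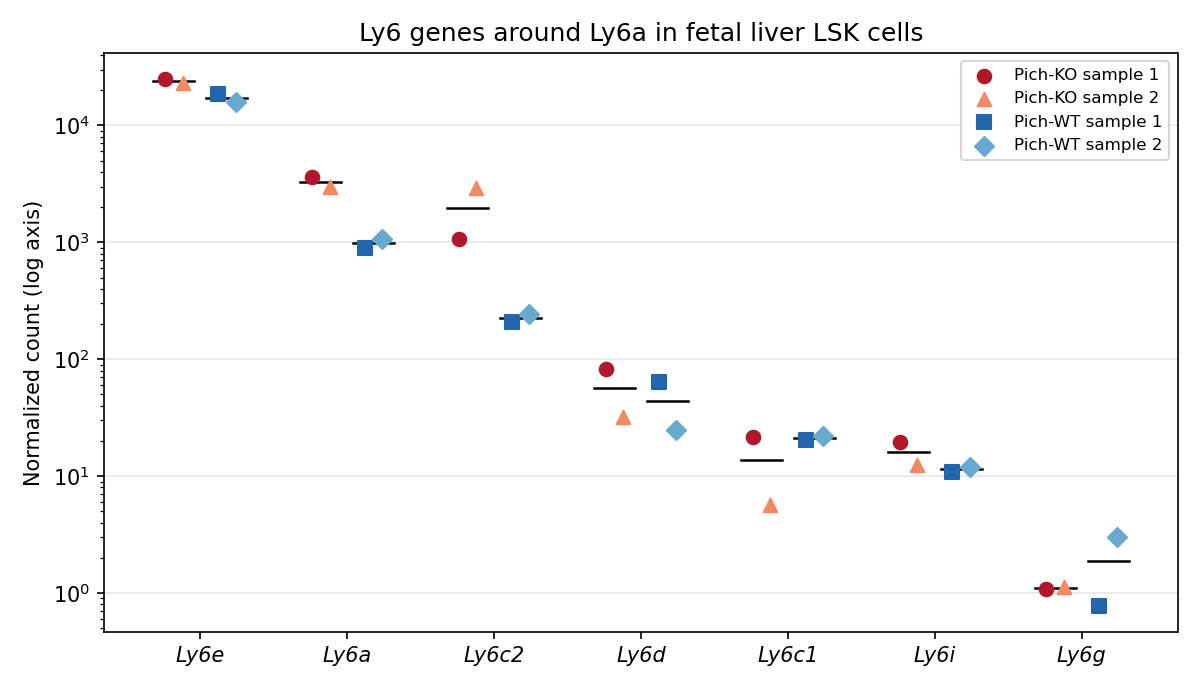
Normalized count of each *Ly6* gene in each sample on a log axis, with genes ordered by mean level, points for the 4 samples and a line at each group mean. The *Pich*-KO points of *Ly6e*, *Ly6a* and *Ly6c2* lie above both *Pich*-WT points, and those of *Ly6c2* are 2.71-fold apart.

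To ask which members changed after *Pich* deletion, a limma model was fitted to log2(normalized count + 1) for every gene whose mean reached 1, followed by Benjamini-Hochberg adjustment. The log2 fold changes below are on this scale unless another fit is named, and other folds are ratios of normalized counts. The log2 scale with 1 added understates changes of low genes. All 7 members passed the filter. At an adjusted p of 0.05, 3 of the 7 were higher and 0 lower in *Pich*-KO, where 7.58% of all genes tested were higher, 9.6% lower and 17.2% either. At an unadjusted p of 0.05 the same 3 passed, and edgeR and DESeq2 also called 0 members lower. The 3 were the members whose mean reached 100 normalized counts, and of all 10544 genes at that level 21.1% were higher. Both *Pich*-KO samples lay above both *Pich*-WT samples for 4 members and below both for 0, against 28.9% and 27.2% of all genes, and 56.1% of genes did not overlap in one direction or the other.

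*Ly6a* rose. It lies on chromosome 15 from 74994877 to 74998031 on the minus strand (ENSMUSG00000075602), and its product Sca-1 is a positive marker of the LSK gate. Its normalized counts were 3586 and 2978 in *Pich*-KO samples 1 and 2 and 901 and 1061 in *Pich*-WT samples 1 and 2. The groups did not overlap, and samples within each group differed by at most 1.2-fold. The means were 3282 ± 430 (SD, n = 2) and 981 ± 113 (SD, n = 2), 3.35-fold apart. The log2 fold change was 1.74 (standard error 0.14, 95% confidence interval 1.42 to 2.06, adjusted p = 0.000167, limma). Summed with *Ly6i*, the normalized counts were 3606 and 2991 against 912 and 1073, a 3.32-fold difference that does not depend on how reads were split between these 2 genes. *Ly6c1*, the gene with most of the 50-base words that *Ly6a* shares (15% of its words), held at most 26 reads in any sample.

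*Ly6e* rose by less from a far higher level. It lies from 74955051 to 74959905 on the plus strand (ENSMUSG00000022587), and encodes a widely expressed surface protein that is also the receptor of the placental fusion protein syncytin-A. Its normalized counts were 24773 and 23104 in *Pich*-KO samples 1 and 2 and 18458 and 15990 in *Pich*-WT samples 1 and 2. Each *Pich*-KO sample exceeded each *Pich*-WT sample, by a margin wider than the gap within either group. The means were 23939 ± 1180 (SD, n = 2) and 17224 ± 1745 (SD, n = 2), a log2 fold change of 0.48 (standard error 0.08, interval 0.28 to 0.67, adjusted p = 0.0059, limma). In absolute terms *Ly6e* gained more normalized counts than any other member, and its share of the members' reads went from 92.1% to 93.9% in *Pich*-WT to 79.6% to 83.8% in *Pich*-KO. The reads of *Ly6e* per read of *Ly6a* came to 6.91 and 7.76 for *Pich*-KO and 20.5 and 15.1 for *Pich*-WT, so the ratio between these 2 genes did not overlap between the groups.

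*Ly6c2* had the largest fold change of the 7 members in the limma fit. It lies from 75108158 to 75111970 on the minus strand (ENSMUSG00000022584) and encodes Ly6C, high on inflammatory monocytes and also present on granulocyte precursors. Its normalized counts were 1068 and 2891 for *Pich*-KO samples 1 and 2, against 209 and 244 for *Pich*-WT samples 1 and 2. Both *Pich*-KO samples were high, but *Pich*-KO sample 2 was 2.71-fold above sample 1. Of all genes tested, 4.42% had both *Pich*-KO samples above both *Pich*-WT samples and at least a 2-fold gap between the *Pich*-KO samples. The means were 1979 ± 1289 (SD, n = 2) and 226 ± 25.0 (SD, n = 2), a log2 fold change of 2.96 (standard error 0.39, interval 2.05 to 3.86, adjusted p = 0.00162, limma). The log2 fold change was 3.67 without *Pich*-KO sample 1 and 2.24 without *Pich*-KO sample 2. *Ly6a* went the other way between these samples, with *Pich*-KO sample 1 the higher, and the reads of *Ly6a* per read of *Ly6c2* came to 3.36 and 1.03 for *Pich*-KO and 4.32 and 4.35 for *Pich*-WT.

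*Ly6c1*, the near copy of *Ly6c2* and a gene known from endothelial and T cells, was not raised. It lies from 75044018 to 75048830 on the minus strand (ENSMUSG00000079018), and its reads numbered 20 in *Pich*-KO sample 1, 5 in sample 2, and 26 and 22 in the *Pich*-WT samples. Scaled for depth, these were normalized counts of 21.8 and 5.68 against 20.3 and 22, so *Pich*-KO sample 2 was the low one and sample 1 lay within the *Pich*-WT range. The log2 fold change was −0.84 with an interval of −2.32 to 0.63 (adjusted p = 0.457, limma). For each read of *Ly6c1*, the *Pich*-KO samples had 49.0 and 509 reads of *Ly6c2*, and the *Pich*-WT samples 10.3 and 11.1. Summed over both genes, reads came to 999 and 2548 against 293 and 266, an 8.05-fold difference between the means of their summed normalized counts. The rise of this sum does not depend on how reads were split between them.

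*Ly6d*, *Ly6i* and *Ly6g* did not pass the threshold. *Ly6d* (ENSMUSG00000034634, 74762056 to 74763620, minus strand) marks lymphoid progenitors set on the B cell path. Its reads numbered 75 and 28 for *Pich*-KO samples 1 and 2 and 81 and 25 for *Pich*-WT samples 1 and 2, so each group held a high and a low sample and the groups overlapped (log2 fold change 0.35, interval −0.96 to 1.66, adjusted p = 0.755, limma). *Ly6i* (ENSMUSG00000022586, 74979534 to 74983430, minus strand) had 18 and 11 reads against 14 and 12, with normalized counts of 19.6 and 12.5 against 10.9 and 12.0. These did not overlap, but the interval of its log2 fold change ran from −0.73 to 1.58 (adjusted p = 0.652, limma). *Ly6g* (ENSMUSG00000022582, 75155240 to 75159126, plus strand), the defining surface antigen of neutrophils, was covered by 1 read in each *Pich*-KO sample, and by 1 and 3 in *Pich*-WT. All 4 samples were at or under 3 reads, so no fold is given and a difference was not detectable at this depth.

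**Figure D2:**
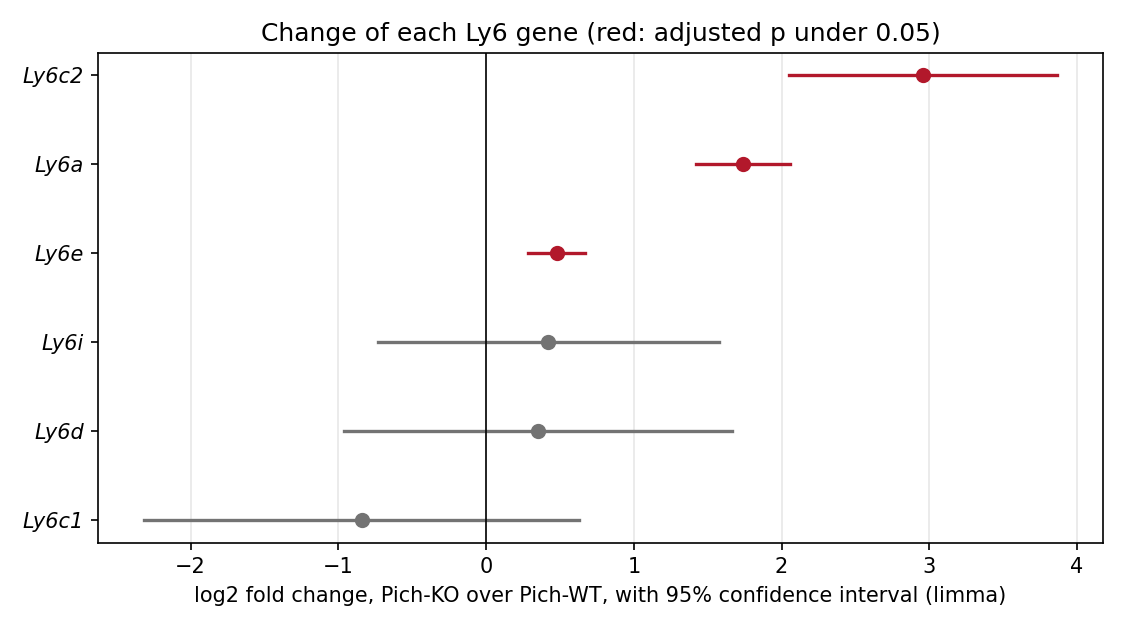
log2 fold change of each *Ly6* gene in *Pich*-KO over *Pich*-WT with its 95% confidence interval from limma, red where the adjusted p was under 0.05. The intervals of *Ly6c2*, *Ly6a* and *Ly6e* lie above 0 and do not overlap between *Ly6e* and the other 2 raised genes, while those of *Ly6i*, *Ly6d* and *Ly6c1* cross 0. *Ly6g*, at or under 3 reads in every sample, is not drawn.

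To see whether the whole locus moved, the other genes on chromosome 15 within 200 kb of the outermost members were listed. Of 28 such genes, 22 were tested, with 1 higher and 1 lower in *Pich*-KO and a median log2 fold change of 0.19, against 0.02 over all genes tested. The gene that was lower was *Arc*, an immediate early gene best known from neurons. Its lowest coordinate lies 326 kb below that of *Ly6a*, and both genes are on the minus strand. Its normalized counts fell from 95.3 and 90 to 29.4 and 25.0 (log2 fold change −1.73, adjusted p = 0.00655, limma). The gene that was higher was *Gm5960*, an unprocessed pseudogene between *Ly6c1* and *Ly6c2*. Reads on it numbered 15 and 54 for *Pich*-KO samples 1 and 2 and 8 and 1 for *Pich*-WT samples 1 and 2, so *Pich*-KO sample 2 was the highest here as for *Ly6c2* (log2 fold change 3.11, adjusted p = 0.0388, limma). It passed in 6 of 16 alternative fits, and its adjusted p was 0.0878 with a pseudocount of 0.1. Of the 22 tested neighbours 20 did not pass the threshold, where 17.2% of all genes tested passed in either direction. As 9 of all 28 were at or under 3 reads in every sample, these counts cannot show whether the whole locus moved.

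**Figure D3:**
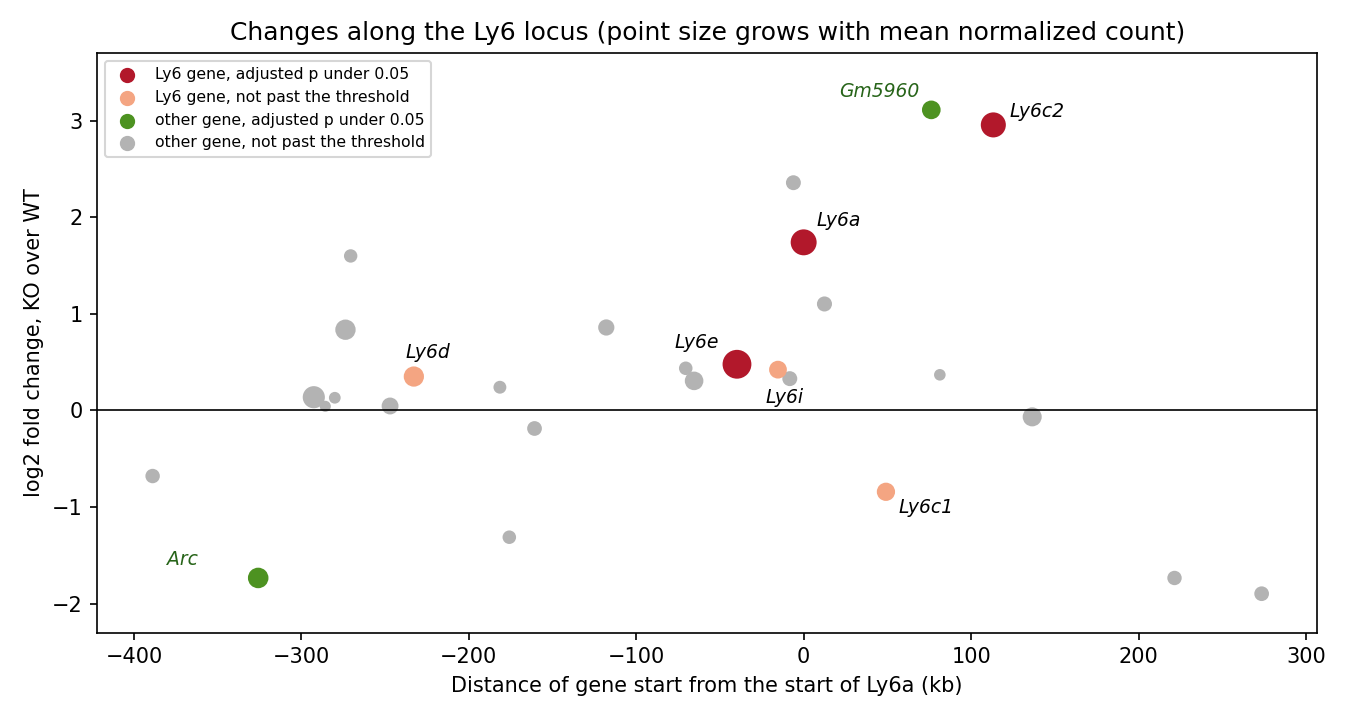
log2 fold change of the tested genes other than *Ly6g* along chromosome 15 against the distance of each gene's start from that of *Ly6a* in kilobases. Start here means the lowest coordinate on either strand, and point size grows with the mean normalized count. *Gm5960* (3.11), *Ly6c2* (2.96) and *Ly6a* (1.74) are called higher, and *Ly6c1* (−0.84), between *Ly6a* and *Gm5960*, lies below 0.

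Of the 7 members, *Ly6c1*, *Ly6c2* and *Ly6g* had an entry among RefSeq's promoters on GRCm38.p6. None of the 3 windows of 250 bases before the start held, on either strand, the core of the interferon-stimulated response element or the GAS letters TTCNNNGAA of STAT factors, which were present in 2.98% and 7.02% of 32851 such windows.

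The wider family was read next. Of 32 further genes with the Ly6/uPAR fold, 29 were matched and 28 tested, with 1 higher and 3 lower, 4 in all beside the 17.2% of all genes called in either direction, and a median log2 fold change of −0.75. *Plaur*, the urokinase receptor, was higher, with 240 and 232 normalized counts in *Pich*-KO against 92.2 and 126 in *Pich*-WT (log2 fold change 1.12, adjusted p = 0.0136, limma). *Gpihbp1*, which holds lipoprotein lipase on capillary endothelium, fell from 430 and 271 to 29.4 and 22.7 (log2 fold change −3.67, adjusted p = 0.000217, limma). *Cd59a*, an inhibitor of complement, fell from 1043 and 882 to 167 and 76.2 (log2 fold change −3.08, adjusted p = 0.000645, limma). *Ly6g6f*, a platelet membrane protein, was lower, at 63 and 21 reads in *Pich*-WT and at or under 3 in *Pich*-KO (adjusted p = 0.00935, limma). *Plaur* lost its call in 6 and *Ly6g6f* in 7 of 16 alternative fits. The genes called went in both directions, as did those over the whole table (7.58% higher and 9.6% lower). Of the 29, 7 were at or under 3 reads in all samples, and 16 had 0 reads in at least 1 sample. The count filter of edgeR kept 6. The median and the share called over the 28 therefore rest largely on genes with few reads.

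Markers of other cells moved with the genotype and are given beside these results. The lists were chosen with earlier results of these data known, so their counts are descriptions. In bulk samples, fewer cells of a type and less RNA per cell cannot be told apart. Beside the counts called in each list below stand 7.58% higher and 9.6% lower over all genes tested. Among genes whose mean reached 100, 21.1% were higher. The share lower at that level was not computed, and the 9.6% covers genes at all levels. The 12 macrophage markers were all lower in *Pich*-KO, with summed normalized counts of 1695 to 1771 against 56995 to 62448. Those with the highest mean were the iron exporter gene *Slc40a1* (log2 fold change −4.85) and the complement gene *C1qb* (−4.69). The 10 endothelial markers were all lower as well, with sums of 1789 to 3164 against 24816 to 36314, and *Lyve1* (log2 fold change −5.39) and *Kdr* (−4.02) had the highest means. *Gpihbp1* and *Ly6c1* are genes of that cell type too. *Ly6c1* did not pass the threshold, with 21.8 and 5.68 normalized counts in *Pich*-KO samples 1 and 2 against 20.3 and 22 in *Pich*-WT. The 10 T and NK cell markers had 0 higher and 4 lower by limma, with sums of 898 to 1073 against 1944 to 2220, while *Nkg7* and *Lck*, those with the highest mean, did not pass. No marker in these lists was at 0 in all samples. *Ly6a*, which endothelial and T cells also carry, rose while the 10 endothelial markers and 4 of the 10 T and NK cell markers were lower. The part of these cells in the level of *Ly6a* was not tested.

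The neutrophil and monocyte lists bear on *Ly6c2*. Of 12 neutrophil markers, 3 were higher and 0 lower in *Pich*-KO, with summed normalized counts of 66270 and 123210 for *Pich*-KO samples 1 and 2 and 18408 to 20902 for *Pich*-WT. The 3 were *Mpo*, *Prtn3* and *Ctsg*, genes of the primary granules that form in early granulocyte precursors. *Elane*, another gene of these granules, did not pass (log2 fold change 0.90, adjusted p = 0.374, limma). Over the 12 markers the median change was 0.19 on the log2 scale, and *Mpo* alone made up 54647 and 90492 of the *Pich*-KO sums. *Pich*-KO sample 2 was above *Pich*-KO sample 1 for 11 of the 12, as for *Ly6c2*, where 50.4% of all genes tested had this order. The 10 monocyte markers had 1 higher (*Ms4a6c*) and 5 lower, with sums of 24934 in each *Pich*-KO sample against 49101 to 55064. *Csf1r* and *Lyz2*, the monocyte genes with the highest mean, had log2 fold changes of −1.33 and −1.74. The 3 of 12 neutrophil markers that rose stand beside 21.1% higher among all genes whose mean reached 100. Of the 6 monocyte markers that passed 5 were lower, beside 9.6% lower over all genes tested, a share not matched for level. The part of either cell type in the level of *Ly6c2* was not tested.

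The interferon response list, also chosen with earlier results of these data known, moved with *Ly6a*. All 25 of its genes were higher in *Pich*-KO, with a median log2 fold change of 2.45 and summed normalized counts of 82244 and 50993 in *Pich*-KO samples 1 and 2 against 11886 and 13076 in *Pich*-WT. Its genes with the highest mean were the transcription factor *Irf7* (log2 fold change 2.22) and *Bst2*, the virus tether (2.16). *Pich*-KO sample 1 was the higher for 24 of the 25, where 48% of all genes tested had this order, as it was for *Ly6a* and *Ly6e* and not for *Ly6c2*. The order was not particular to this list, since 12 of 12 stem and progenitor and 10 of 10 endothelial markers also had it. The log2 fold changes of *Ly6a* (1.74) and *Ly6e* (0.48) were below the median of this list, and that of *Ly6c2* (2.96) was above it. Whether interferon raised any member was not tested here.

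**Figure D4:**
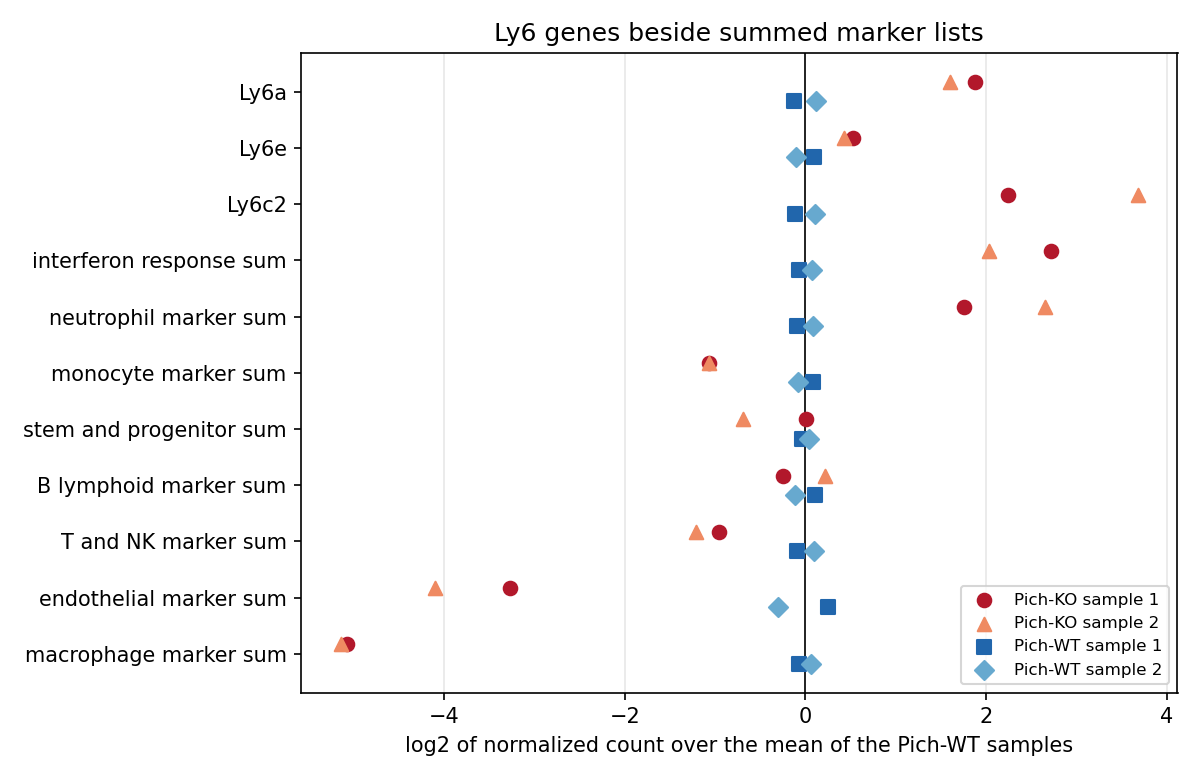
log2 of each sample's normalized count over the mean of the *Pich*-WT samples, for *Ly6a*, *Ly6e* and *Ly6c2* and for the summed counts of 8 marker lists. *Pich*-KO points are drawn just above *Pich*-WT points of the same row, and *Pich*-KO sample 1 is the higher *Pich*-KO point for *Ly6a*, *Ly6e* and the interferon response, and *Pich*-KO sample 2 for *Ly6c2* and the neutrophil list.

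The stem and progenitor list showed what else changed inside the LSK gate. *Kit*, the other positive marker of the gate, stood at 4447 and 2772 normalized counts against 2328 and 2513 in *Pich*-WT, a difference that did not pass (log2 fold change 0.54, adjusted p = 0.114, limma). Of the 12 genes of the list, 0 were higher and 5 lower, namely *Hlf*, *Mecom*, *Procr*, *Gata2* and *Slamf1*, with log2 fold changes of −0.58 to −2.88. *Cd34* and *Flt3*, those with the highest mean, did not pass. *Ly6a* thus rose where these 5 genes of stem cells fell. The 12 B lymphoid markers, set beside *Ly6d*, had 1 higher (*Rag1*) and 1 lower (*Blnk*), with sums of 1986 to 2750 against 2189 to 2538, and *Cd79b* and *Cd79a*, the highest, did not pass. The sums of the list overlapped between the groups, as *Ly6d* did. Within *Pich*-KO the sum was higher in sample 2, while *Ly6d* was higher in sample 1 (81.8 against 31.8 normalized counts). Within *Pich*-WT both were higher in sample 1.

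Genes whose pattern over the 4 samples was most like that of a member were found by the Euclidean distance between log2 values centred on the *Pich*-WT mean, among 10543 other genes whose mean reached 100. With 4 samples this is a description. Nearest to *Ly6a* were *Zfp275*, *Cox4i2* and *Trim12c*, at distances of 0.113, 0.113 and 0.133. Nearest to *Ly6e* were *Tmem147*, *Rpp14* and *Cops2*, at 0.025, 0.044 and 0.048. Nearest to *Ly6c2*, which was added after its values were seen, were *Prtn3*, *Rab44* and *Ctsg*, at 0.376, 0.415 and 0.57. *Prtn3* and *Ctsg*, proteases of the neutrophil primary granule, had 6835 and 15270 and 922 and 3418 normalized counts in *Pich*-KO samples 1 and 2, with *Pich*-KO sample 2 the higher for each.

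Without *Pich*-WT sample 2, the log2 fold changes of *Ly6a*, *Ly6e* and *Ly6c2* in edgeR were 1.90, 0.41 and 3.28. For a single gene, the smallest p that an exact two-sided permutation of 4 samples can reach is 0.333, so each adjusted p rests on the variance shared across genes. When any 1 sample was left out, limma kept no call, while edgeR kept those of *Ly6a*, *Ly6e* and *Ly6c2*. Both methods then assume that the lone sample of a group varies like the others, so calls on 3 samples are weak support. With 1 sample left out, over both methods, the log2 fold changes ran from 1.61 to 1.91 for *Ly6a*, 0.37 to 0.59 for *Ly6e* and 2.24 to 3.71 for *Ly6c2*.

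**Figure D5:**
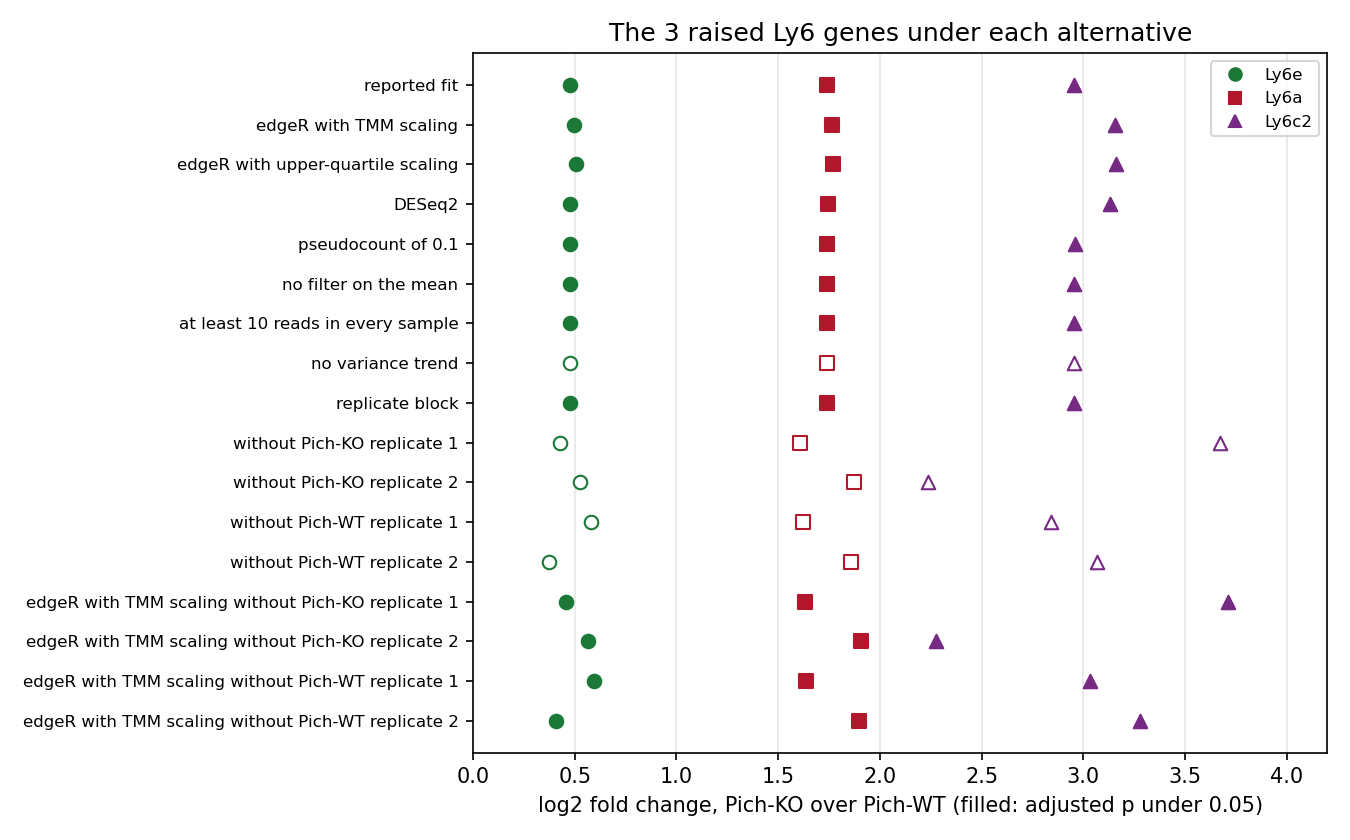
log2 fold change of *Ly6e*, *Ly6a* and *Ly6c2* in the reported fit and 16 alternatives, filled where the adjusted p was under 0.05. Every estimate is above 0, those of *Ly6c2* spread from 2.24 to 3.71, and open points mark the limma fits on 3 samples and the fit without a variance trend.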

How the data were processed

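The authors deposited 1 table for RNA sequencing of LSK cells from 2 *Pich*-KO and 2 *Pich*-WT samples. Its values are a signal, read counts per gene divided by the authors by 1 size factor per sample, called normalized counts here. All values were whole multiples of 1 step per sample within 0.001 reads, which gave back the reads (share of whole values 100%). Chi-square over degrees of freedom between replicates was 14.7 in *Pich*-KO and 8.18 in *Pich*-WT, above sampling noise. The submitters' processing notes name Bowtie 0.12.2 and the builds mm8 and mm9, but 97.8% of 39131 genes found in GENCODE M21 had its start and end on GRCm38, so coordinates are GRCm38. The counter and strand setting are not given in the sources used here. The table also holds the authors' group means, fold changes and p-values, which were not used.

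Samples were grouped by their titles. limma 3.58.1 with a variance trend (R 4.3.3) was fitted to log2(value + 1) for genes with a mean of at least 1, and all p-values were adjusted over the whole table. Alternatives were edgeR 4.0.16 (TMM or upper-quartile scaling) and DESeq2 1.42.0 on the recovered reads, a pseudocount of 0.1, no filter, at least 10 reads in every sample, no variance trend, a replicate block and leaving out each sample, in limma and, added after its result was seen, in edgeR. The fits were tested on simulated data. The members and lists were chosen with earlier results of these data known. Lists were the 7 members, other Ly6/uPAR genes, locus neighbours, interferon response, stem and progenitor, monocyte, neutrophil, macrophage, endothelial, B lymphoid, T and NK and Y-linked genes. Named genes are the members, *Ercc6l*, up to 5 called genes of the family and locus lists, the 3 genes nearest to *Ly6a* and to *Ly6e*, and the 2 markers of a list with the highest mean. Other markers, *Gm5960*'s comparison with *Ly6c2* and the genes nearest to *Ly6c2* were picked after their values were seen. Coding sequences came from principal transcripts. Promoters of *Ly6a*, *Ly6d*, *Ly6e* and *Ly6i* and protein sequences were not analysed here.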

Additional observations from a re-analysis of the deposited data

How the results depend on the processing

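*Ly6a*, *Ly6c2* and *Ly6e* kept their direction in all 16 alternatives and their call in 11. The 11 include the edgeR fits on 3 samples, which were added after the limma result was seen. The exceptions were the limma fit without a variance trend and limma on 3 samples. On 3 samples, limma and edgeR both assume that the lone sample of a group varies like the others. Over all alternatives the adjusted p ran from 1.59e-21 to 0.232 for *Ly6a*, 1.08e-19 to 0.279 for *Ly6c2* and 4.33e-06 to 0.314 for *Ly6e*.

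Without a variance trend 0 genes were called higher and 0 lower, against 2459 and 3113, and with them 0 members, 0 other Ly6/uPAR genes and 0 locus neighbours in either direction, although 7377 genes had an unadjusted p under 0.05. This setting alters the variance prior and leaves every fold change as it was. The locus neighbour called higher, *Gm5960*, was lost (0 called) with a pseudocount of 0.1, without a filter and with at least 10 reads in every sample, where it was not tested. *Ly6c1* could not be fitted in the last of these, as its reads are too few, and *Ly6g* is given no fold.

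With 1 sample left out, the genes called higher ran from 0 to 3685 and those lower from 0 to 3917, the members called higher from 0 to 3, the other Ly6/uPAR genes from 0 to 1 higher and 0 to 3 lower, and the locus neighbours from 0 to 1 in each direction. All of the 0 values for genes and members were limma fits. In edgeR, *Plaur* and *Ly6g6f* were lost without *Pich*-WT sample 1 (adjusted p = 0.0707 and 0.0773) and *Gm5960* without *Pich*-KO sample 2 (0.19) or *Pich*-WT sample 2 (0.0618). Of the members that were not called, *Ly6c1* and *Ly6d* changed sign, and *Ly6i* kept its sign in all 16 alternatives. With 1 sample left out, the log2 fold change of *Ly6c1* ran from −1.73 to 0.043 in limma and from −1.84 to 0.084 in edgeR, with the highest value without *Pich*-KO sample 2. That of *Ly6d* ran from −0.32 to 1.02 in limma and from −0.45 to 1.19 in edgeR, below 0 without *Pich*-KO sample 1 or *Pich*-WT sample 2 (−0.30 and −0.12 for the latter). The cause was not tested.

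The labels tie the replicate numbers to no shared litter, batch or day, and deviations from the group means were uncorrelated between samples of one number (r = 0.0133 over 10544 genes, themselves no replicates). When the number entered as a replicate block, the log2 fold changes were unchanged, 3 members were called higher and 0 lower, and 6996 genes were called in all against 5572.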
